A study of Mus musculus with 9 samples.

Results

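The interleukin-1 family ligands and receptors taken here are 10 genes of 23944 in the deposited tables, chosen by symbol: Il1a, Il1b, Il1rn, Il33, Il1f9, Il1r1, Il1rap, Il1r2, Il1rl1 and Il18rap. All 10 were found in each of the 3 tables and all 10 were tested. A study of low blood volume in lung donors sequenced RNA from entire left lungs of adult wild type mice, with 3 libraries in each of 3 groups. Naive lungs were those of C57BL/6 mice with no operation named. Cold-ischemia grafts were C57BL/6 left lungs held at 0 °C for 24 h, placed orthotopically in Balb/C recipients and reperfused for 2 h. Shock grafts had the same storage, recipients and reperfusion, and their donors had first spent 4 h in hypovolemic shock at a mean arterial pressure of 15 ± 5 mmHg and then 20 h in recovery. Every graft thus shares cold storage, surgery and an allogeneic recipient, and holds cells of both strains, and no graft without storage is among the groups.

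Interleukin-1 alpha and interleukin-1 beta are agonists that bind the receptor Il1r1, which signals through MyD88 once it pairs with the accessory chain Il1rap. The antagonist Il1rn occupies the same receptor without signalling, and Il1r2 is a decoy that binds agonists but lacks the signalling domain. Il33, the alarmin held in the nucleus of barrier cells and in mouse lung abundant in alveolar type 2 cells, acts through Il1rl1 and the same accessory chain, Il18rap completes the receptor of interleukin-18, and Il1f9 encodes interleukin-36 gamma, whose receptor is Il1rl2.

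Total counts ran from 18913487 to 34986276 per library. The markers of alveolar type 2 cells, 8 in all, were present in every library with a summed level of 18245 to 26216 CPM (counts scaled to library size, after TMM), so that lung tissue was present as labelled. Sample titles set the groups here, but the deposited tables place cold-ischemia replicate 2 with the shock grafts and shock replicate 3 with the cold-ischemia grafts. Because of this, the 6 grafts are compared as a whole with the naive lungs first, a comparison that moving those libraries hardly touches, and the graft groups are compared under both groupings. The naive libraries are also listed, per their labels, under another study's record, and in any comparison with them surgery and batch cannot be told apart. Markers of neutrophils rose with the grafts, 10 of 10 in each graft group, from a summed 54.5 to 83.0 CPM in naive lungs to 1079 to 3114 CPM in grafts. Of them, Ly6g and Ngp were below the test's filter in a naive lung and so needed a graft above it to be tested. The part of neutrophils in the results that follow was not tested. In RNA of a whole lung, more cells of a type and more RNA per cell cannot be told apart.

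Of the 10 genes, 8 rose in the 6 grafts against naive lungs and none fell (edgeR quasi-likelihood test, Benjamini-Hochberg adjusted p under 0.05 over 15834 genes), against 41.8% of all genes called in either direction, 22.1% higher and 19.7% lower. In 8 of the 10, every other one than Il1rl1 and Il33, the lowest graft lay above the highest naive lung, while 40.9% of all genes had groups that did not overlap. The median log2 fold change over the 10 was 3.44, and that over all genes tested was -0.05. Every member stood above the expression filter's cutoff of 0.412 CPM in each naive library, so none entered the test through the grafts alone. In the cold-ischemia grafts alone 7 of 10 rose and none fell, with 30.6% of all genes called, 17.5% higher and 13.1% lower. In the shock grafts alone 8 of 10 rose and none fell, with 39.9% of all genes called, 22% higher and 17.9% lower. These comparisons share the naive lungs.

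**Figure D1:**
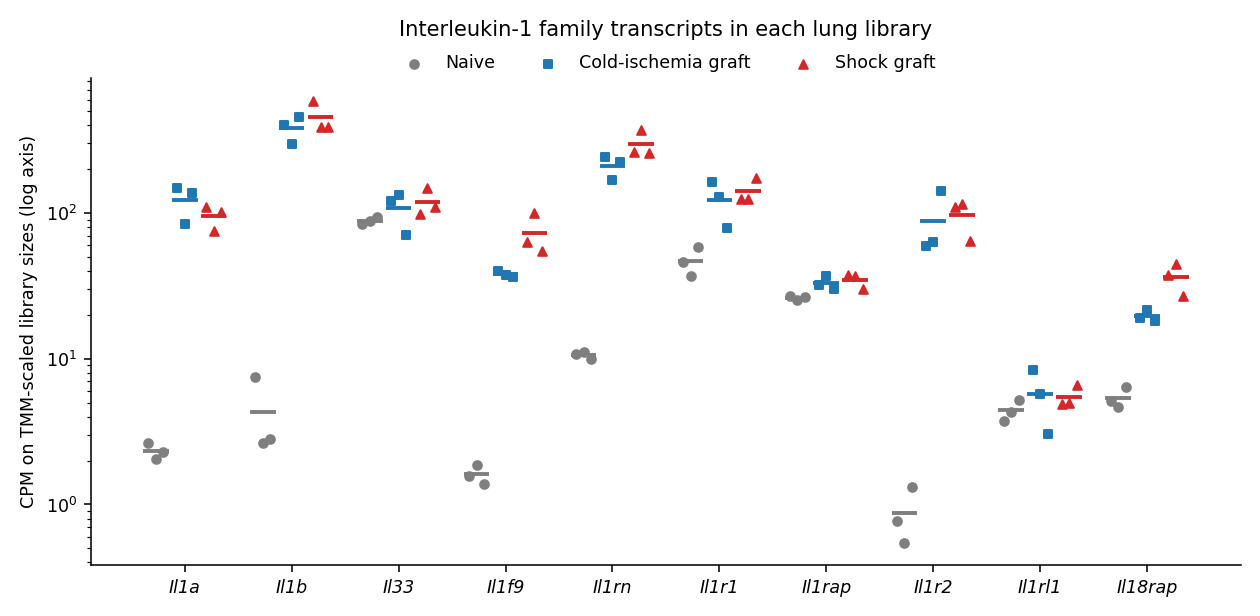
Level of each gene in each library, as CPM on TMM-scaled library sizes on a log axis, with circles for naive lungs, squares for cold-ischemia grafts and triangles for shock grafts and with a line at each group mean (n = 3). Grafts lie far above naive lungs for Il1a, Il1b, Il1f9, Il1rn and Il1r2, and among naive lungs for Il1rl1.

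In all grafts against naive lungs the agonist genes had the largest changes among the ligands, while in shock grafts alone Il1f9 (log2 fold change 5.50) was above Il1a (5.36). Il1b stood at 7.50, 2.62 and 2.81 CPM in naive replicates 1 to 3, at 404, 295 and 454 CPM in the cold-ischemia grafts and at 590, 389 and 392 CPM in the shock grafts. Naive replicate 1 was well above the other naive lungs, and still every graft was far above it. The mean was 4.31 ± 2.76 CPM (SD, n = 3) in naive lungs and 421 ± 97.6 CPM (SD, n = 6) in grafts, a ratio of 97.6, and the fitted log2 fold change was 6.59 ± 0.44 (SE, edgeR adjusted p = 2.4e-06). Without naive replicate 1 the log2 fold change of Il1b was 7.25.

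Il1a, whose product acts already as a precursor released from dying cells, stood at 2.63, 2.04 and 2.28 CPM in naive lungs, at 149, 83.7 and 138 CPM in the cold-ischemia grafts and at 111, 74.7 and 101 CPM in the shock grafts. The naive lungs were close to one another, and the graft groups overlapped. Its log2 fold change, all grafts against naive, was 5.54 ± 0.27 (SE, edgeR adjusted p = 4.38e-07), a ratio of means of 47.3. Both agonist genes lie on chromosome 2 of mm10 on the minus strand, Il1a at 129299610 to 129309972 and Il1b at 129364570 to 129371139. In GENCODE release M21 their exons share 222 bases with Gm14023 and 25 bases with Il1bos on the opposite strand, and whether counting used strand is not stated. The tables gave Gm14023 167 reads and Il1bos 123 reads over the 9 libraries together, beside 14698 reads of Il1a and 56534 reads of Il1b in the grafts.

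Il1rn, the antagonist gene, stood at 10.8, 11.1 and 9.91 CPM in naive lungs, at 244, 169 and 222 CPM in the cold-ischemia grafts and at 260, 374 and 258 CPM in the shock grafts. Naive lungs differed little. All shock grafts lay above all cold-ischemia grafts as grouped by title, and the graft groups overlapped under the tables' grouping. Its log2 fold change in grafts was 4.56 ± 0.21 (SE, edgeR adjusted p = 4.38e-07), a ratio of means of 24.0. Il1f9, which drives inflammation at epithelial surfaces, stood at 1.57, 1.85 and 1.39 CPM in naive lungs, at 40.0, 37.3 and 36.4 CPM in the cold-ischemia grafts and at 63.4, 99.3 and 54.5 CPM in the shock grafts. Grouped by title, the cold-ischemia grafts were here nearly equal and the shock grafts were higher and more spread. Under the tables' grouping the graft groups overlapped. The log2 fold change of Il1f9 in grafts was 5.04 ± 0.25 (SE, edgeR adjusted p = 4.52e-07), a ratio of means of 34.3. Il1f9 and Il1rn neighbour each other on chromosome 2 within 165.0 kb, at 24186476 to 24193568 and 24336853 to 24351494. The 1 gene of the tables between them, Il1f6, had 0 reads in naive lungs and 1 read in grafts.

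Il33 was the ligand that did not pass the test. It stood at 83.3, 88.5 and 94.2 CPM in naive lungs, at 121, 132 and 70.5 CPM in the cold-ischemia grafts and at 97.8, 147 and 110 CPM in the shock grafts. On this scale cold-ischemia replicate 3 was below every naive lung and the other 5 grafts were above every naive lung. The deposited FPKM divide by the library's total instead of its TMM-scaled size, and naive lungs had 38.7 to 41.8 FPKM. There shock replicate 1, at 34.6 FPKM, was also below every naive lung, and shock replicate 3, at 40.4 FPKM, lay among them. The log2 fold change in grafts was 0.35 ± 0.20 (SE, 95% interval -0.09 to 0.79, edgeR adjusted p = 0.185). Without cold-ischemia replicate 3 it was 0.46 with an edgeR adjusted p of 0.0367, so the call rests on that library. The summed markers of alveolar type 2 cells overlapped between naive lungs, at 23565 to 26216 CPM, and grafts, at 18245 to 25948 CPM. Sftpc held the largest share, at 12727 to 14458 CPM in naive lungs and 7996 to 14141 CPM in grafts. Of the 8 markers 2 fell in grafts and 0 rose. Those that fell were Slc34a2 (log2 fold change -1.42 ± 0.25, SE, edgeR adjusted p = 0.00117) and Etv5 (-0.98 ± 0.25, SE, edgeR adjusted p = 0.00847). The part of these cells in the level of Il33 was not tested.

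Stretches of promoter are shown for Il1a, Il1b and Il1rn, the agonists and the antagonist that rose together, and for Il33, which did not pass the test. Each is the 250 bases before a transcription start in RefSeq on GRCm38.p6, written 5′ to 3′ on the strand of the gene, with motif matches in capitals. Motifs were searched on both strands as the kappa B core (GGG, then 5 bases of any kind, then CC), the AP-1 site TGANTCA and the C/EBP half-site pair TTGCNNAA, and positions count back from the start at -1. No match of 1 motif overlapped that of another in the stretches shown, which are Il1a at chr2:129309973-129310222 (minus strand), Il1b at chr2:129371140-129371389 (minus strand), the first Il1rn start at chr2:24336610-24336859 (plus strand), a later Il1rn start at chr2:24345121-24345370 (plus strand) and the second Il33 start at chr19:29945540-29945789 (plus strand).
Il1a: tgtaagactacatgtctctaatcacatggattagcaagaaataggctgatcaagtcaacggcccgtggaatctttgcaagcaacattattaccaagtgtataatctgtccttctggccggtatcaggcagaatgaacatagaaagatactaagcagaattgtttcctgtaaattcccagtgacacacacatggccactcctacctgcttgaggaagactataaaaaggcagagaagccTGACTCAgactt
Il1b: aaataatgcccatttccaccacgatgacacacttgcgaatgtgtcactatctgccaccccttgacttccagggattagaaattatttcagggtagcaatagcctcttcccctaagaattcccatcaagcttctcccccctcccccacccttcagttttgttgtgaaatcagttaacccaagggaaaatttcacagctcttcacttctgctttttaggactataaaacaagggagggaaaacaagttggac
Il1rn first start: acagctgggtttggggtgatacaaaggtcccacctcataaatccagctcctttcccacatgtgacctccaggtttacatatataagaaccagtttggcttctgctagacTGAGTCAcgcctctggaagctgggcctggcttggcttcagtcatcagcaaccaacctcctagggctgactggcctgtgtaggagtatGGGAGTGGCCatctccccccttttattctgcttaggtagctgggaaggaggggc
Il1rn later start: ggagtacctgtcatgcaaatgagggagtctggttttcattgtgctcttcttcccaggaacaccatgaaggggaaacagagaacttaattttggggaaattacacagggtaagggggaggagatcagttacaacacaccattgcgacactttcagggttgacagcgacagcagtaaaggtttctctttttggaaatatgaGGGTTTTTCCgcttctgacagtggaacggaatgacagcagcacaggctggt
Il33 second start: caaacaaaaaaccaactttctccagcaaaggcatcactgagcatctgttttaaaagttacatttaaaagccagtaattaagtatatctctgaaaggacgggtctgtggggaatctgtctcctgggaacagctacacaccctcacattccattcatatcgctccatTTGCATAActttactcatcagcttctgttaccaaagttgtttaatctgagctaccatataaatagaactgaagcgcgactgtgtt
Il1a held an AP-1 match at -12, next to its start. The first Il1rn start held an AP-1 match at -141 and a kappa B match at -54, and the later start a kappa B match at -51. These letters were not in the Il1b window. The second Il33 start held a C/EBP match at -85, and the first Il33 start and a further Il1rn start, not printed, held no match. Over the 15 promoters that RefSeq gives the 10 genes, 4 held the kappa B core, 2 the AP-1 site and 3 the C/EBP letters. The kappa B core was found for Il1rn, Il1r1 and Il1rap, and the Il1rap promoter, not printed, held 6 matches of it. The promoters of Il1r2, Il1f9 and Il18rap held no match of any motif. Of 32851 mouse promoters of the same length, 45.8% held the kappa B core, 6.75% the AP-1 site and 9.56% the C/EBP letters. A match describes letters and not binding.

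Among the receptors, the decoy changed most. Il1r2 stood at 0.773, 0.543 and 1.32 CPM in naive lungs, which rests on 27, 12 and 52 reads. Grafts had 59.2, 63.5 and 141 CPM after cold ischemia and 110, 115 and 64.2 CPM after shock. Cold-ischemia replicate 3, the lowest graft for 6 of the 10 genes, was the highest for this one. The log2 fold change of Il1r2 in grafts was 6.65 ± 0.47 (SE, edgeR adjusted p = 3.38e-06), a ratio of means of 105. Neutrophils and monocytes are known to carry this decoy in mice. Beside the neutrophil sums given above, 5 of 8 monocyte markers rose and 2 fell in grafts, from a sum of 220 to 296 CPM in naive lungs to 430 to 583 CPM. Most of that rise was Nr4a1, an immediate early gene found in many cell types, at 23.9 to 73.1 CPM in naive lungs and 119 to 283 CPM in grafts. The markers that fell were Ccr2, from 20.2 to 32.0 CPM in naive lungs to 9.003 to 20.5 CPM, and Cx3cr1, from 10.6 to 13.9 CPM to 0.747 to 5.44 CPM. The part of either cell type was not tested.

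Il1r1, the signalling receptor of both agonists, rose less. It stood at 46.3, 36.9 and 58.1 CPM in naive lungs, at 162, 129 and 78.4 CPM in the cold-ischemia grafts and at 125, 126 and 175 CPM in the shock grafts. All grafts were above all naive lungs, with cold-ischemia replicate 3 nearest to them. The log2 fold change was 1.49 ± 0.24 (SE, edgeR adjusted p = 0.000727), a ratio of means of 2.81. Il18rap, expressed by natural killer and T cells and by neutrophils, stood at 5.09, 4.66 and 6.35 CPM in naive lungs, at 19.0, 21.6 and 18.1 CPM in the cold-ischemia grafts and at 37.5, 44.6 and 26.9 CPM in the shock grafts. Grouped by title, the 3 groups did not overlap, while under the tables' grouping the graft groups overlapped. Its log2 fold change in all grafts was 2.31 ± 0.20 (SE, edgeR adjusted p = 1.08e-05), a ratio of means of 5.21. Markers of NK and T cells, of which 2 of 10 rose and 2 fell in grafts, summed to 37.9 to 58.4 CPM in naive lungs and to 56.2 to 76.0 CPM in grafts, and their part was not tested.

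Il1rap, the accessory chain shared by the receptors for interleukin-1, interleukin-33 and interleukin-36, moved least among the genes called. It stood at 26.8, 25.5 and 26.5 CPM in naive lungs, at 31.9, 36.9 and 29.9 CPM in the cold-ischemia grafts and at 37.5, 37.1 and 30.1 CPM in the shock grafts. Grafts and naive lungs did not overlap on this scale, with a log2 fold change of 0.37 ± 0.13 (SE, edgeR adjusted p = 0.0365). The call depended on the scaling: with upper-quartile scaling, which shifts the median of all genes to -0.25, the log2 fold change was 0.17 with an edgeR adjusted p of 0.278. It was also lost with no filter on low counts (0.35, edgeR adjusted p = 0.085) and without any 1 of naive replicates 1, 2 and 3, cold-ischemia replicates 1 and 2 or shock replicate 1, where edgeR adjusted p ran from 0.0561 to 0.137 and log2 fold changes from 0.33 to 0.38. On the deposited FPKM scale, which divides reads by gene length and by the library's total, Il1rap was 6.74 ± 0.24 (SD, n = 3) in naive lungs and 6.95 ± 0.68 (SD, n = 6) in grafts, and the groups overlapped. A predicted gene, Gm20319, shares 552 exonic bases with Il1rap on the opposite strand and had 7 reads in all.

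Il1rl1, the receptor of Il33 carried by type 2 lymphoid cells, mast cells and some endothelium, did not pass the test. It stood at 3.75, 4.34 and 5.23 CPM in naive lungs, at 8.43, 5.74 and 3.05 CPM in the cold-ischemia grafts and at 4.85, 4.98 and 6.64 CPM in the shock grafts. Cold-ischemia grafts held both the highest and the lowest library of all 9. The log2 fold change in grafts was 0.34 ± 0.29 (SE, 95% interval -0.31 to 0.98, edgeR adjusted p = 0.378). Markers of mast cells and basophils summed to 359 to 391 CPM in naive lungs and to 81.2 to 159 CPM in grafts. Of their 10 markers Kit and Gata2 held nearly all of that sum, so its fall is that of Kit and Gata2. Every other marker was low, at no more than 3.06 CPM in any library. Among the 7 tested, Kit and Gata2 fell, Mcpt8 rose and 4 were not called. Mcpt8 was below the filter's cutoff in every naive lung and so entered the test through the grafts. Markers of type 2 lymphoid cells summed to 106.8 to 117.8 CPM in naive lungs and 172.7 to 271.9 CPM in grafts, with Il13 at 0 in naive lungs. Of the 6 tested of 8 listed, Areg and Il7r rose and Gata3, the lineage factor, fell. Areg alone went from 2.76 to 6.75 CPM in naive lungs to 62.0 to 126 CPM in grafts, most of the rise of the sum, while Gata3 went from 5.92 to 11.8 CPM to 1.89 to 3.84 CPM. What either cell type contributed to Il1rl1 was not tested.

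**Figure D2:**
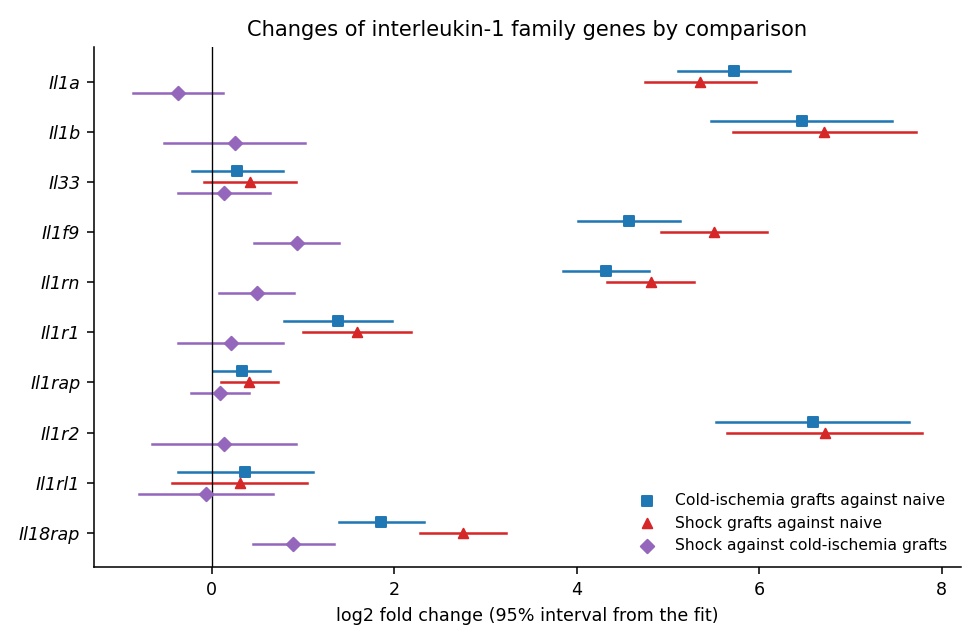
Log2 fold change of each gene with its 95% interval from the edgeR fit, with squares for cold-ischemia grafts against naive lungs, triangles for shock grafts against naive lungs and diamonds for shock against cold-ischemia grafts. Intervals of Il33 and Il1rl1 cross 0 in all 3 comparisons, and the diamonds of Il1f9, Il18rap and Il1rn lie right of 0 although no gene passed the adjusted test there.

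Receptors and ligands sit in gene clusters, and in the receptor cluster of chromosome 1 neighbours did not move alike. A run of 466.9 kb on chromosome 1, from the start of Il1r2 to the end of Il18rap, holds 6 receptor genes on the plus strand, and the noncoding Gm16894, which overlaps the start of Il1r2 on the other strand, was too low to be tested. In map order the log2 fold changes in grafts were 6.65 ± 0.47 for Il1r2 and 1.49 ± 0.24 for Il1r1, 0.08 ± 0.21 for Il1rl2, 0.34 ± 0.29 for Il1rl1, -0.18 ± 0.25 for Il18r1 and 2.31 ± 0.20 for Il18rap (SE). Il1r2, Il1r1 and Il18rap rose, and the genes between, Il1rl2 (edgeR adjusted p = 0.777), Il1rl1 and Il18r1 (edgeR adjusted p = 0.592), were not called. Il18r1 binds interleukin-18 and pairs with Il18rap, which did rise. Naive lungs were uneven in Il18r1, with 1951, 1074 and 4639 reads.

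**Figure D3:**
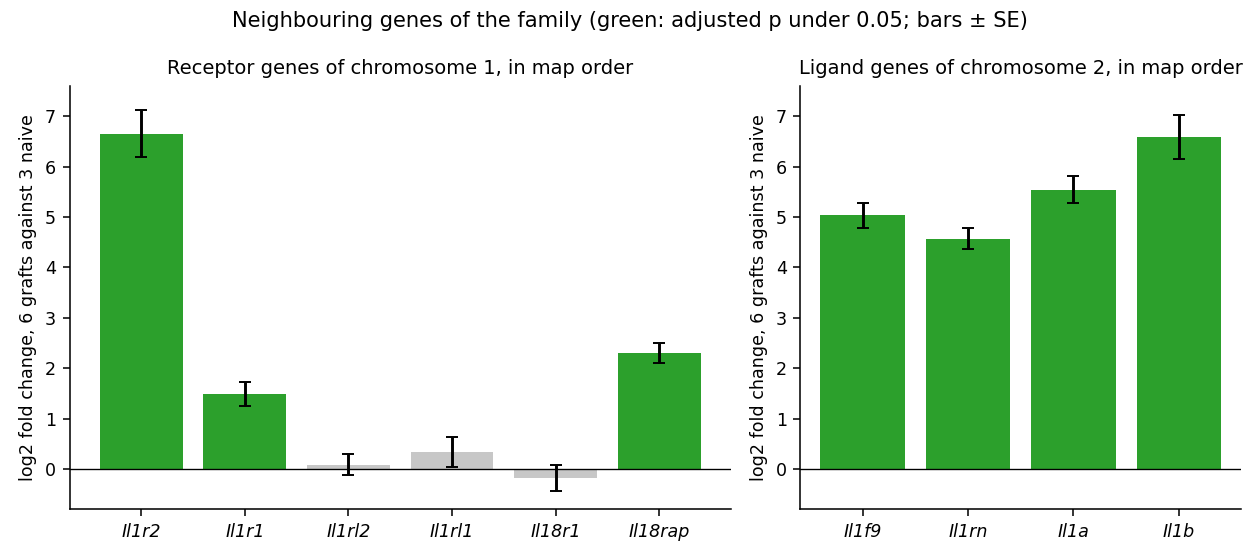
Log2 fold change, 6 grafts against 3 naive lungs, of the receptor genes of chromosome 1 and the ligand genes of chromosome 2 in map order, with bars for the estimate, whiskers for its SE and green for an adjusted p under 0.05. Il1rl2, Il1rl1 and Il18r1 stand near 0 between called neighbours, and all 4 ligand genes of chromosome 2 are above 4.

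The order of the transcripts per gene length differed between naive lungs and grafts. In naive lungs Il33 led at 40.4 ± 1.58 FPKM, followed by Il1r1 at 11.3 ± 2.34, Il1rap at 6.74 ± 0.24 and Il1rn at 4.98 ± 0.39 FPKM (SD, n = 3). Each of these neighbours differed beyond its spread. Il1b at 3.71 ± 2.44 FPKM overlapped Il1rn and lay above Il1a at 1.36 ± 0.19 FPKM. Il18rap at 1.27, Il1f9 at 1.13, Il1rl1 at 0.970 and Il1r2 at 0.756 FPKM each overlapped the next, so their order is not settled at this spread.

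In grafts Il1b led at 287 ± 63.3 FPKM (SD, n = 6), above Il1rn at 95.2 ± 24.1 with no overlap. Il1r2 at 64.1 ± 24.7, Il1a at 51.5 ± 14.0, Il33 at 41.1 ± 9.56, Il1f9 at 30.9 ± 13.1 and Il1r1 at 25.4 ± 6.31 FPKM formed a run in which each overlapped its neighbours. Il1rap at 6.95 and Il18rap at 5.28 ± 1.97 FPKM, which overlapped each other, came next, and Il1rl1 was last at 0.979 ± 0.31 FPKM. Il33, first of the 10 in naive lungs with no overlap, had nearly the same FPKM in grafts, where it lay within that run, and Il1r2 went from the lowest overlapping genes into that run.

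**Figure D4:**
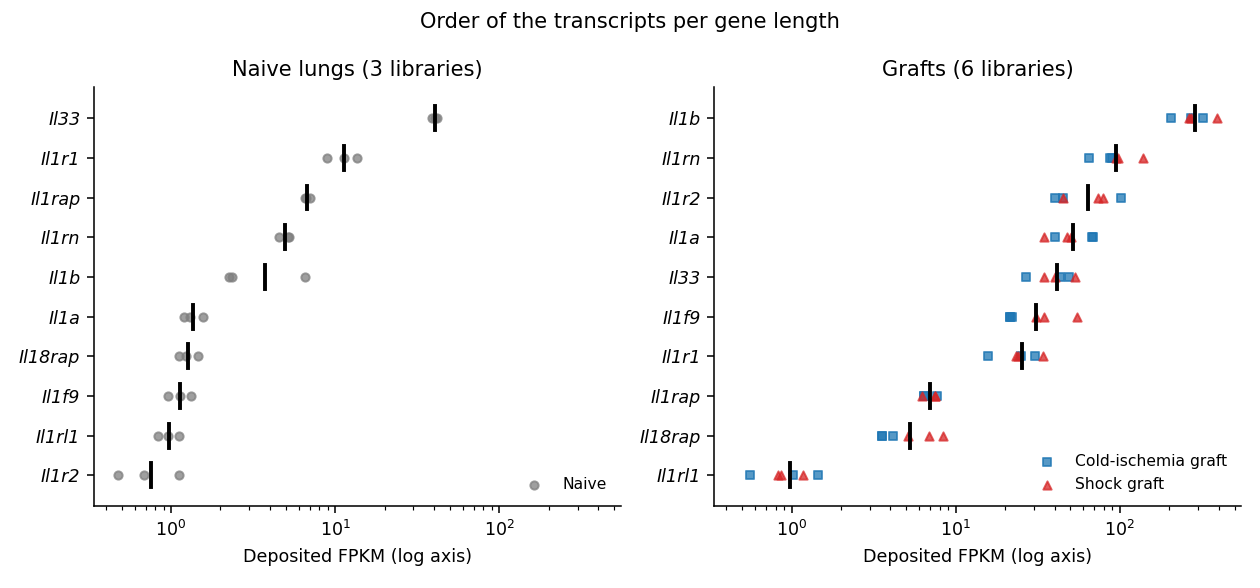
Deposited FPKM of the 10 genes on a log axis, ordered by the mean of 3 naive libraries on the left and of 6 graft libraries on the right, with a black bar at each mean. Il33 leads in naive lungs at 40.4 FPKM and Il1b in grafts at 287 FPKM.

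Ratios within a library set agonist, antagonist and receptors against one another. Antagonist to agonist, as Il1rn to Il1b, was above 1 by FPKM in 2 of 3 naive lungs (0.791 to 2.32) and in 0 of 6 grafts (0.242 to 0.526). Decoy to signalling receptor, as Il1r2 to Il1r1, was 0.0532 to 0.0817 by FPKM in naive lungs and 1.32 to 6.50 in grafts, above 1 in 6 of 6. Between the agonists, Il1b exceeded Il1a in every library, by 1.80 to 4.15 times in naive lungs and 3.94 to 7.76 times in grafts. Il33 exceeded Il1a by FPKM in 3 of 3 naive lungs and in 2 of 6 grafts.

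As log2 ratios of CPM, where gene length cancels from the difference, Il1rn to Il1b was lower in grafts by a difference of -2.19 (-0.73 ± 0.39 in 6 grafts against 1.45 ± 0.82 in 3 naive lungs, SD, exact two-sided permutation p = 0.0238, adjusted over 3 ratios 0.0357). Il1r2 to Il1r1 was higher in grafts by 5.12 (-0.56 ± 0.90 against -5.68 ± 0.27, exact permutation p = 0.0238, adjusted 0.0357). Il1b to Il1a was higher by 1.24 (1.95 ± 0.38 against 0.71 ± 0.67, exact permutation p = 0.0476, adjusted 0.0476), with naive replicate 1 at 1.48 inside the range of the grafts. The smallest p that 6 against 3 can give is 0.0238. Leaving out any 1 library other than cold-ischemia replicate 1 took all 3 adjusted exact p to between 0.0536 and 0.143, where 6 against 2 libraries cannot go below 0.0714 and 5 against 3 cannot go below 0.0357, and no such omission turned a direction.

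**Figure D5:**
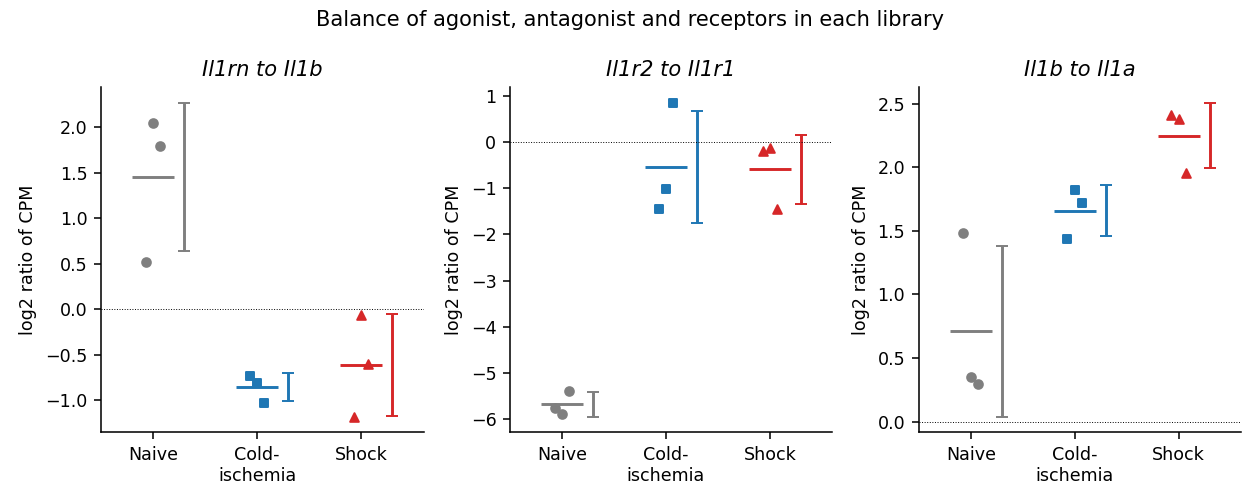
Log2 ratio of CPM within each library for antagonist to agonist, decoy to signalling receptor and Il1b to Il1a, with points for libraries, a line for each group mean and a bracket for its SD (n = 3). Grafts lie below naive lungs in the first panel and above them in the second. Shock grafts lie above cold-ischemia grafts in the third, as grouped by title, and overlap them under the tables' grouping.

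Between the graft groups no member was called and no gene among the 15834 was (0% called, edgeR adjusted p under 0.05). An unadjusted edgeR p under 0.05 was reached by 3 members and by 1152 genes (7.28%), and DESeq2 called 6 genes, none of them a member. Il1f9, Il18rap and Il1rn were the members whose shock grafts all lay above all cold-ischemia grafts, 3 of 10 beside 10.4% of all genes with no overlap in either direction. Il1f9 differed by a log2 fold change of 0.93 ± 0.21 (SE, 95% interval 0.47 to 1.40, edgeR adjusted p = 0.671). Il18rap differed by 0.89 ± 0.20 (SE, 95% interval 0.45 to 1.34, edgeR adjusted p = 0.671), and Il1rn by 0.49 ± 0.18 (SE, 95% interval 0.08 to 0.90, edgeR adjusted p = 0.671).

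The other members had intervals that include 0. Il1a was at -0.37 ± 0.22 (SE, 95% interval -0.86 to 0.12) and Il1b at 0.25 ± 0.35 (SE, 95% interval -0.53 to 1.02). Differences in Il1b of up to 1.02 on the log2 scale thus lie within its interval. Il1r2 at 0.13 ± 0.36 (SE, 95% interval -0.66 to 0.92) was as wide, and Il1rap at 0.09 ± 0.14 (SE, 95% interval -0.23 to 0.40) was the narrowest. Of the ratios, Il1b to Il1a did not overlap between the graft groups, at 1.43 to 1.82 after cold ischemia and 1.95 to 2.41 after shock, with a difference of 0.59 (exact permutation p = 0.1, the smallest that 3 against 3 allows, adjusted 0.3). That separation holds for the titles' groups only. The libraries at 1.82 and 1.95 are those that the tables place in the other group, and under that grouping the ratio overlapped. Il1rn to Il1b differed by 0.24 (exact permutation p = 0.6) and Il1r2 to Il1r1 by -0.05 (exact permutation p = 1.0).

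Under the tables' grouping, 124 genes (0.783%) and no member were called between the graft groups. The log2 fold changes were 0.61 ± 0.30 for Il1f9, 0.69 ± 0.26 for Il18rap and 0.15 ± 0.23 for Il1rn (SE), and their graft groups overlapped. Il1rap was then the 1 member without overlap, at 0.28 ± 0.11 (SE, edgeR adjusted p = 0.2), beside 23.2% of all genes. Il1a was at -0.53 ± 0.18 (SE, edgeR adjusted p = 0.166). In the authors' deposited table of shock against cold-ischemia grafts the log2 fold changes were 0.57 for Il18rap (adjusted p = 0.197), 0.48 for Il1f9 (adjusted p = 0.355) and -0.46 for Il1a (adjusted p = 0.234). The authors' deposited table of shock grafts against naive lungs gives 0.54 for Il33 with an adjusted p of 0.0179, where the titles' groups gave 0.42 ± 0.23 (SE, edgeR adjusted p = 0.168), and 0.54 for Il1rap with an adjusted p of 0.000973.

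Marker sums of some cell types differed between the graft groups of the titles. No marker of neutrophils, erythrocytes, fibroblasts or endothelium was called between those groups. Neutrophil markers summed to 1079, 1273 and 2067 CPM in the cold-ischemia grafts and to 2703, 3114 and 1677 CPM in the shock grafts, so the groups overlapped, with shock replicate 3 below cold-ischemia replicate 3. Markers of erythrocytes, 5 genes, summed to 154 to 432 CPM in the cold-ischemia grafts and to 567 to 964 CPM in the shock grafts, with 21.4 to 214 CPM in naive lungs. In all grafts against naive lungs 4 of these 5 rose and 1, Hbb-bt, fell (log2 fold change -1.89 ± 0.66, SE, edgeR adjusted p = 0.0398). Markers of fibroblasts, 8 genes, were the other way in sum, at 2417 to 2959 CPM in the cold-ischemia grafts and 1335 to 2380 CPM in the shock grafts, and 2333 to 4197 CPM in naive lungs. Only the collagen genes Col1a1 and Col1a2 were lower in every shock graft than in every cold-ischemia graft. Pdgfra, at 362 to 454 CPM after cold ischemia and 331 to 520 CPM after shock, overlapped, as did Dcn, Tcf21, Lum, Npnt and Col13a1. Under the tables' grouping, the erythrocyte sums and the fibroblast sums overlapped between the graft groups. Endothelial markers were lowest of all 9 libraries in shock replicate 2, at 2515 CPM, beside 3610 to 4153 CPM in the other grafts. Shock replicate 2 was the highest graft for 4 of the 10 members and in the neutrophil sum. Without it the log2 fold changes between the graft groups were 0.64 for Il1f9, 0.72 for Il18rap and 0.29 for Il1rn. What these cells contributed to Il1f9, Il18rap and Il1rn was not tested.

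Other genes of the pathway were counted in 3 lists. Of 16 further family symbols listed, 7 were in the tables and 5 were tested. Of those 5, 1 was higher and 1 lower in grafts, a share like that of all genes (41.8% called). Some of the 16 symbols are other names of the same gene or of a member, such as Il36g for Il1f9. They thus stand for fewer genes, and a symbol not found need not be a missing gene. Il18bp, the secreted inhibitor of interleukin-18, rose from 6.10 ± 1.39 CPM (SD, n = 3) to 10.6 ± 2.01 CPM (SD, n = 6), a log2 fold change of 0.78 ± 0.18 (SE, edgeR adjusted p = 0.00613). Sigirr, a receptor that dampens the signal of the others, fell from 18.6 ± 1.37 to 11.3 ± 1.17 CPM (SD), a log2 fold change of -0.72 ± 0.14 (SE, edgeR adjusted p = 0.00177). Il18 itself was level at 10.1 ± 1.45 and 10.2 ± 1.50 CPM (SD), with a log2 fold change of 0.01 ± 0.16 (SE, edgeR adjusted p = 0.974).

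Below the receptors, 14 of 19 genes rose and 1 fell, where 22.1% of all genes rose and 19.7% fell, with a median log2 fold change of 0.84 beside -0.05 over all genes. Nfkbiz, a nuclear co-regulator of NF-kB targets, rose by 5.46 ± 0.26, Zc3h12a, the ribonuclease Regnase-1 that degrades cytokine mRNAs, by 5.13 ± 0.17, and Map3k8, a kinase above ERK, by 3.80 ± 0.28 (log2 ± SE, edgeR adjusted p at most 4.63e-06). The adaptor Myd88 rose by 2.19 ± 0.21 and the inhibitory kinase homologue Irak3 by 2.36 ± 0.20. Tab1, a partner of the kinase TAK1 and named after its value was seen, fell by 1.35 on the log2 scale. Toll-like receptors use the same adaptors, so the list is not specific to the interleukin-1 family.

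For maturation and release, 9 of 15 genes rose and none fell. Of the 9, Mefv, Elane, Prtn3 and Ctsg were below the filter's cutoff in at least 1 naive library. They thus needed at least 1 graft above the cutoff to be tested. Among the other 11 genes 5 rose and none fell, where 22.1% of all genes rose and 19.7% fell, and their median log2 fold change was 0.34 beside -0.05 over all genes. The sensor Nlrp3 rose from 3.53 ± 0.96 to 112 ± 30.5 CPM (SD), a log2 fold change of 4.97 ± 0.31 (SE, edgeR adjusted p = 1.56e-06), and Mefv, which encodes the sensor pyrin, by 5.11 ± 0.42 (SE). Casp1, the protease that cleaves the precursor of interleukin-1 beta, was not called, at 0.34 ± 0.28 (SE, edgeR adjusted p = 0.359). Ctsg, a protease of neutrophil granules, rested on 3 reads in naive lungs and 98 in grafts, 0 of them in shock replicate 1, a ratio of 23.5 with an exact 95% counting interval of 7.81 to 116. Between the graft groups none of the 39 tested genes of these lists was called.

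Across the 6 grafts Il1b was most alike in log2 CPM to Pop4 (Pearson r = 0.973), Arhgap25 (0.966) and Ide (0.962), Il1r2 to Trpm4 (0.990), Trim45 (0.984) and Tmem41a (0.975), and Il33 to Rab10 (0.988), Hk1 (0.984) and Spire2 (0.983). These were the highest of 12302 genes compared over 6 libraries that share tissue and surgery, and so are a description with no test. Over all 9 libraries the r of Il1r2 was -0.64 with Trpm4, -0.81 with Trim45 and -0.86 with Tmem41a.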

How the data were processed

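Per the labels' protocols, RNA of whole left lungs entered NEBNext Ultra II libraries read on an Illumina NovaSeq. The authors deposited 3 tables, 1 per pair of groups. Read counts, per the file headers, are raw and whole. The deposited normalized signal was checked to be the count times 1 constant per library and table, and was not used further. The deposited FPKM was checked to be reads per kilobase of the deposited gene length and scaled to the library's total of counted reads. The log2 fold change and p-value columns are the authors' deposited results under the tables' own grouping. The genome build mm10 and the tools STAR-Fusion, STAR, edgeR, HTSeq and DESeq2 come from the submitters' processing notes, which state no version or role. Whether reads were counted by strand is not given in those sources.

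Libraries were grouped by sample title. Counts were tested with edgeR 4.0.16 in R 4.3.3 (TMM, filterByExpr, quasi-likelihood, two-sided) in 1 fit of all 9 libraries, with 6 residual degrees of freedom, and a call needed an adjusted p (Benjamini-Hochberg, 15834 genes) under 0.05. CPM are on TMM-scaled library sizes, and log2 ratios used a prior count of 2. SE is the log2 fold change over the root of its F, and intervals are 95%. Ratios were compared with exact permutation tests. DESeq2 1.42.0, other scalings, filters and groupings, a replicate block and leaving out each library served as alternatives. Nothing states separate animals for the replicates, so p-values measure the spread between these samples, which may be technical. Counting intervals cover counting error only.

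The members, lists and tests were chosen with earlier results of these data known. Named were all members, the 3 called genes of each list with the largest log2 fold change, 8 further list genes in any case, and the 3 genes most like Il1b, Il1r2 and Il33. The script was tested on simulated counts.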

Additional observations from a re-analysis of the deposited data

How the results depend on the processing

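Across 18 alternative settings the members called numbered 7 to 9 in all grafts against naive lungs, 7 in cold-ischemia grafts, 7 to 8 in shock grafts and 0 between the graft groups. The changes of count came from Il1rap and Il33. Upper-quartile scaling moved the median log2 fold change of all genes to -0.25, -0.22 and -0.28 in those first 3 comparisons. Il1rap in shock grafts was no longer called under upper-quartile scaling (0.19, edgeR adjusted p = 0.284), without a filter (0.39, adjusted p = 0.0962), with only the libraries compared (0.40, adjusted p = 0.0574) or with most single libraries left out, and the cause was not tested. Genes called between the graft groups were 6 by DESeq2 and 124 under the tables' grouping.

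With the replicate number of the titles as a block, Il1rap was at 0.36 in all grafts (edgeR adjusted p = 0.06) and 0.40 in shock grafts (adjusted p = 0.0666), past the threshold in neither, and no other member's call changed. Correlations of deviations between same-numbered libraries ran from -0.39 to 0.0965, so the numbers were not taken to pair lungs.

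With each library left out, log2 ratios in all grafts against naive lungs ran from -2.65 to -1.89 for Il1rn to Il1b, 4.84 to 5.30 for Il1r2 to Il1r1 and 1.04 to 1.63 for Il1b to Il1a. Between the graft groups they ran from -0.0354 to 0.52 for Il1rn to Il1b and from -0.50 to 0.65 for Il1r2 to Il1r1, which stood at 0.24 under the tables' grouping. Fold changes near 0 turned sign. Il1r1 between graft groups was at -0.13 under the tables' grouping and ran from -0.0442 to 0.46 with a library left out, Il1r2 from -0.0876 to 0.64, Il1rl1 from -0.38 to 0.32 and Il33 from -0.11 to 0.31. Il1rl1 in cold-ischemia grafts against naive lungs ran from -0.0126 to 0.67. Depth limits Il1r2 most, with 12 to 52 reads in a naive library.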
